A study of Mus musculus with 4 samples.

Results

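The cells described here are thymus cells that passed a gate on transcripts of the egress stage. This is the last step of thymic development, at which a finished T cell leaves the thymus for the blood. Passing the gate does not place a cell at that stage. As given below, the gate shares of PL and T-ALL#2 were not distinguishable from background, and B-cell RNA was found in the gate. The cells were chosen by measured values. A cell was gated when it held at least 1 unique molecular identifier (UMI, a tag counted once per captured RNA molecule) of Klf2 and at least 1 of S1pr1 or Ccr7, and fewer than 3 UMIs per 10000 of the cell-cycle genes Mki67, Top2a, Pclaf, Rrm2, Tyms and Birc5 summed. The gate held 988 of 17544 cells, of which 630 came from wild type thymus (WT), 165 from preleukemic thymus (PL), 134 from T-ALL#1 and 59 from T-ALL#2.

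Klf2 is a zinc-finger transcription factor of resting T cells that switches on S1pr1. S1pr1 is the receptor for sphingosine-1-phosphate, a lipid that is abundant in blood and draws mature thymocytes out of the tissue. Ccr7 is the chemokine receptor that brings positively selected thymocytes from the cortex into the medulla, where they finish their maturation as CD4 or CD8 single-positive cells. In mouse build GRCm38 (GENCODE M21), Klf2 lies on chromosome 8 at 72319033 to 72321656, S1pr1 on chromosome 3 at 115710433 to 115715072, Ccr7 on chromosome 11 at 99144196 to 99155077 and Ms4a4b on chromosome 19 at 11443553 to 11467055.

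Single-cell 3′ RNA libraries were made on the 10x Genomics platform from viable sorted thymus cells of FVB/N mice. There was 1 library of a Wild type mouse aged 6 weeks, 1 of a Tal1/Lmo2 mouse of 6 weeks with no leukemia yet, and 2 of Tal1/Lmo2 mice of 3 months with T-ALL, an acute leukemia of T-cell precursors. In this model the proximal Lck promoter drives Tal1 and Lmo2, oncogenes of human T-ALL, in developing thymocytes, and each leukemia came from 1 animal. The study was made to follow thymocyte development before and after leukemia in this line. Age and leukemia moved together between the PL and T-ALL libraries and cannot be told apart.

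After filtering, the WT library kept 4220 cells with a median of 3800.5 UMIs, PL 5576 cells with 4888, T-ALL#1 5773 cells with 8742, and T-ALL#2 1975 cells with 17581. Any pair of libraries shared between 0 and 9 barcodes. The WT and PL mice are labelled male, yet their libraries held Xist, the RNA of the inactive X chromosome, at 1380 and 1869 CPM (UMIs of the gene scaled to 1000000 UMIs in the cells summed), with 1 and 5 UMIs in all of Uty, Kdm5d, Eif2s3y and Ddx3y, which are Y-linked. T-ALL#1, labelled female, had Xist at 1932 CPM, and T-ALL#2, labelled male, had 4413 UMIs of those Y-linked genes. The WT and PL libraries therefore went against their sex labels. The test below is given with and without each of them, and comparisons of WT with PL cannot be made without them.

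Gated cells were most frequent in WT thymus. They made up 14.9% of WT cells (95% Clopper-Pearson interval 13.9 to 16.0), 2.96% of PL cells (2.53 to 3.44), 2.32% of T-ALL#1 cells (1.95 to 2.74) and 2.99% of T-ALL#2 cells (2.28 to 3.84). Since a deeper cell is more likely to show a UMI of each gene, all cells were also thinned to 2000 UMIs, leaving out shallower ones. The shares were then 256 of 3229 cells in WT (7.93%), 59 of 5226 in PL (1.13%), 37 of 5679 in T-ALL#1 (0.652%) and 7 of 1975 in T-ALL#2 (0.354%). WT stayed highest at both depths, and the T-ALL#2 share, level with PL at full depth, was the lowest after thinning. With 1 library in WT and in PL there is no test between groups, and all intervals on shares and levels cover counting error only. Fewer cells of a kind and less RNA per cell cannot be told apart in such shares when a gene is near its detection limit.

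**Figure D1:**
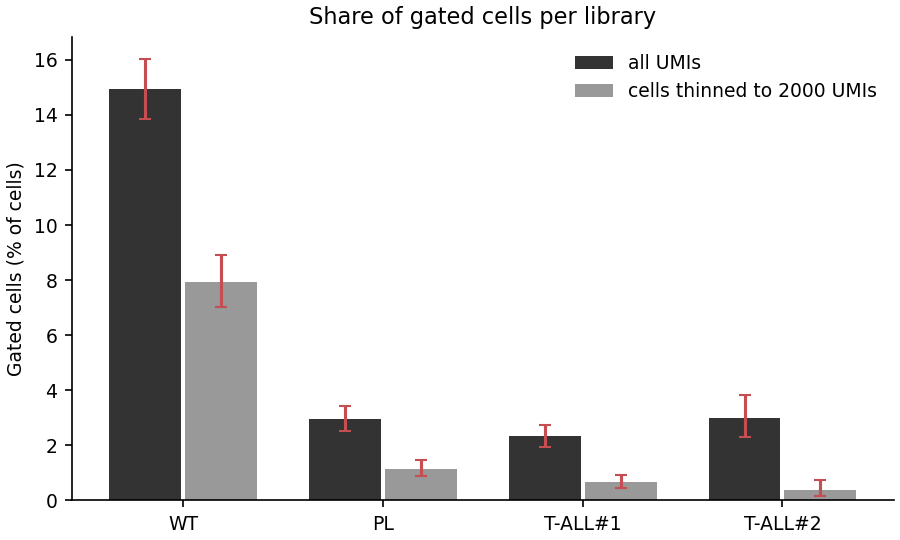
Share of gated cells in each library (vertical axis, percent of cells), with all UMIs in dark bars and with every cell thinned to 2000 UMIs in light bars. Red lines are 95% Clopper-Pearson intervals; WT stood at 14.9% and 7.93%, and the other libraries between 2.32% and 2.99% and between 0.354% and 1.13%.

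Double-positive cortical thymocytes, taken as cells with a UMI each of Cd4, Cd8b1 and Rag1, should lack egress genes and served as the background of the gate. In WT 27 of 1740 such cells passed (1.55%, interval 1.03 to 2.25), in PL 1 of 140 (0.714%, up to 3.92), and in T-ALL#1 13 of 1888 (0.689%, 0.367 to 1.17). Their median depths were 2743, 7235 and 5097 UMIs. In T-ALL#2 2 of 106 passed (1.89%, 0.229 to 6.65, median 11176 UMIs), an interval that takes in that library's whole gate share. The interval of PL also reached above its gate share. At full depth, only in WT and T-ALL#1 did the gate share lie above the interval of its background. The PL and T-ALL#2 shares were thus not distinguishable from background at this number of double-positive cells. After thinning to 2000 UMIs, 2 of 851 double-positive cells passed in WT (0.235%, up to 0.846), against a share of 7.93%. In T-ALL#1 0 of 599 passed (up to 0.614%), and the interval of its share, 0.459 to 0.897 around 0.652%, reached below that limit. At equal depth the T-ALL#1 share was therefore not clearly above background.

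Klf2 was the least selective of the gate's genes in the leukemic libraries. It had a UMI in 51.9% of the double-positive cells of T-ALL#2 and 27.8% of those of T-ALL#1, against 5.0% in WT. The droplets of T-ALL#2 with 100 UMIs or fewer, which hold free RNA rather than cells, carried Klf2 at 117 CPM, above the 102 CPM of its cells outside the gate. S1pr1 and Ccr7 each stood at 2.20 CPM in those droplets.

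The values that chose the cells are given as a description. Klf2 was at 620 CPM in gated and 73.2 in other cells of WT, 677 and 31.6 in PL, 448 and 61.1 in T-ALL#1, and 331 and 102 in T-ALL#2. S1pr1 was at 181, 170, 76.9 and 56.3 CPM in the gated cells of those libraries, and Ccr7 at 284, 135, 104 and 51.2 CPM. Of the cells that passed on Klf2 and S1pr1 or Ccr7, the cell-cycle limit removed 103 of 733 in WT, 25 of 190 in PL, 76 of 210 in T-ALL#1 and 32 of 91 in T-ALL#2. The gated cells nearest to the limit held 2.96, 2.89, 2.94 and 2.99 cell-cycle UMIs per 10000, and the nearest cells left out held 3.00, 3.10, 3.14 and 3.18.

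Both arms of the gate were filled differently. In WT 269 gated cells had S1pr1 and Ccr7 (42.7%), 259 had Ccr7 without S1pr1 (41.1%) and 102 had S1pr1 without Ccr7 (16.2%). Cells with S1pr1 without Ccr7 were 41.2% of gated PL cells, 29.9% in T-ALL#1 and 47.5% in T-ALL#2, and cells with both were 23.6%, 20.9% and 11.9%. Detection of both genes rises with depth, which was lower in WT than in the leukemic libraries.

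Ms4a4b, a membrane protein of late single-positive and naive T cells, is the marker of this stage that the gate did not use. It had a UMI in 259 of 630 gated WT cells (41.1%) against 3.73% of other WT cells, in 52 of 165 gated PL cells (31.5%) against 7.26%, in 29 of 134 of T-ALL#1 (21.6%) against 1.54%, and in 4 of 59 of T-ALL#2 (6.78%) against 0.835%. The level fell in the same order, at 111 CPM in WT (interval 102 to 122), 81.8 in PL (65.6 to 101), 37.1 in T-ALL#1 (27.8 to 48.5) and 5.12 in T-ALL#2 (1.39 to 13.1). After thinning, 59 of 256, 12 of 59, 3 of 37 and 0 of 7 gated cells held it. Set against the other cells of the same library, the level was 9.58-fold higher in WT (8.17 to 11.3), 6.57-fold in PL (5.18 to 8.26), 19.5-fold in T-ALL#1 (13.9 to 27.0) and 10.7-fold in T-ALL#2 (2.61 to 32.7). The unused marker was thus above the other cells in every library, resting on 4 UMIs in T-ALL#2.

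Within the gated WT cells, Ms4a4b was higher where S1pr1 was detected. It was at 145 CPM (129 to 163) in cells with S1pr1 and Ccr7 and 156 (127 to 189) in cells with S1pr1 alone, against 58.6 (47.9 to 70.8) in those with Ccr7 alone. Itgb7, an integrin chain of gut homing, was at 328, 290 and 189 CPM in the same order. Itm2a, a membrane protein that is induced at positive selection, ran the other way, at 209, 122 and 401 CPM, and Cd24a, a surface protein lost as thymocytes mature, stood at 16.8, 29.3 and 45.3. For Ms4a4b, Itgb7 and Itm2a the intervals of the Ccr7-only cells did not overlap those of either S1pr1 class. Not every gene followed this order. Rag1, a gene of immature thymocytes, was lowest in the Ccr7-only cells, at 49.5 (40.1 to 60.4), 94.0 (71.9 to 121) and 28.7 CPM (21.5 to 37.7). Il7r was at 181, 236 and 194 CPM and Cd69 at 100, 109 and 112. The median depths of the 3 classes were 6793, 5718 and 6291 UMIs.

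The coreceptors split the gated cells of WT from those of the transgenic libraries. In WT 277 of 630 gated cells had Cd4 without Cd8b1 (44.0%, interval 40.0 to 47.9) and 154 had Cd8b1 without Cd4 (24.4%, 21.1 to 28.0). Cd4-only cells were 5 of 165 in PL (3.03%, 0.991 to 6.93), 10 of 134 in T-ALL#1 (7.46%, 3.64 to 13.3) and 2 of 59 in T-ALL#2 (3.39%, 0.413 to 11.7). Cd8b1-only cells were 55.8%, 52.2% and 50.8% there, and cells with neither 38.8%, 25.4% and 27.1% against 14.8% in WT. Low Cd4 was not particular to the gate, since Cd4-only cells were also 0.554%, 4.88% and 3.39% of the other cells of PL, T-ALL#1 and T-ALL#2 and 16.6% of those of WT. Rag1, the recombinase gene of immature thymocytes, had a UMI in 10.3% of gated and 62.0% of other WT cells, 9.09% and 26.4% in PL, 18.7% and 62.7% in T-ALL#1, and 8.47% and 26.9% in T-ALL#2.

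**Figure D2:**
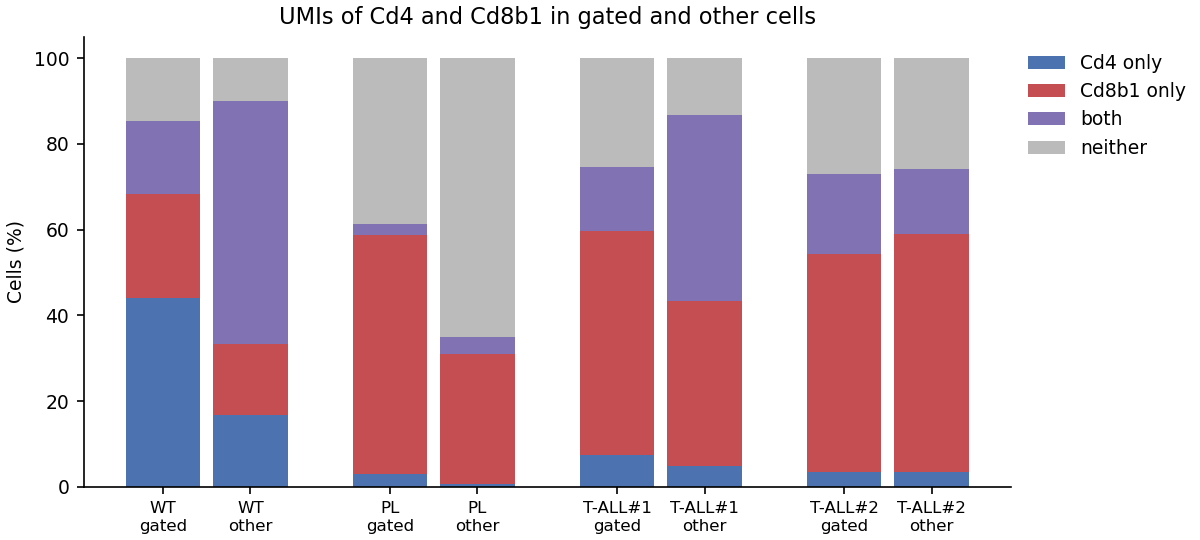
Percent of gated and of other cells in each library with a UMI of Cd4 only, Cd8b1 only, both or neither. The Cd4-only part was 44.0% of gated WT cells and 3.03%, 7.46% and 3.39% of gated PL, T-ALL#1 and T-ALL#2 cells.

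Gated cells were then compared with all other cells of the same library, by edgeR's quasi-likelihood test on UMIs summed over each set of cells, with the library as a block and the 4 animals as replicates. Ms4a4b, Itgb7, S1pr4 and Slfn1 rose in the gated cells of all 4 libraries, and genes of immature thymocytes such as Rag2 and Ptcra fell. In T-ALL#2, whose gated cells summed to 781474 UMIs, Slfn1 at 2.56 CPM and Rag2 at 0 CPM rested on very few UMIs. Of 11399 genes tested, 1126 rose (9.88%) and 1558 fell (13.7%) at an adjusted p under 0.05, or 23.5% in both directions. Without WT 933 rose and 1444 fell, without PL 774 and 1075, without T-ALL#1 758 and 980, and without T-ALL#2 1038 and 1339. The counts moved with the gate's own cell-cycle limit. Against only those other cells that also pass that limit, 330 of 10705 genes rose (3.08%) and 197 fell (1.84%), or 4.92% in all, and 472 of these were among the first calls, 471 of them in the same direction. Counts against these non-cycling cells are therefore given beside each list below. Genes used by the gate took no part in any count. Where a list below has 0 genes in a direction, it also had 0 there at an unadjusted p under 0.05 and by DESeq2, except for 1 quiescence factor that was lower at the unadjusted p and 1 gamma-delta gene that was higher by both. Lists are described by their counts beside these shares of all genes, with no test of the list. Some genes stand in several lists, such as Ptcra, Il2rb and Tnfrsf18, so the counts of different lists are not independent.

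Several receptors of migration and adhesion rose in gated cells. Of 16 tested, 10 rose and 2 fell, where 9.88% and 13.7% of all genes did, with a median log2 change of 1.08 against -0.02 over all genes tested, and against non-cycling cells 4 rose and 1 fell. S1pr4, another sphingosine-1-phosphate receptor, was at 89.2, 75.3, 19.6 and 16.6 CPM in the gated cells of WT, PL, T-ALL#1 and T-ALL#2 and 21.6, 20.1, 2.67 and 3.50 in other cells. Every gated value was at least 3.75 times that of the other cells of its own library, and the log2 change was 2.27 (SE 0.19, edgeR adjusted p = 9.51e-06). Itgb7 was at 265, 254, 104 and 72.9 CPM against 46.9, 49.8, 10.9 and 11.4, a log2 change of 2.73 (SE 0.15, edgeR adjusted p = 7.53e-07).

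Receptors used at earlier stages fell or did not pass. Cxcr4, the chemokine receptor that holds immature thymocytes in the cortex, fell by 0.76 on the log2 scale (edgeR adjusted p = 0.0314), but not against non-cycling cells (edgeR adjusted p = 0.161). Plxnd1, a semaphorin receptor of double-positive cells, fell by 1.62 (edgeR adjusted p = 0.00681). Neither was lower in T-ALL#2, with Cxcr4 at 15.4 CPM in gated and 15.1 in other cells and Plxnd1 at 2.56 and 1.55. Cd69, the early activation antigen that holds S1pr1 inside the cell, was at 106, 77.2, 52.5 and 43.5 CPM in gated and 102, 47.7, 9.31 and 19.1 in other cells and did not pass the test (edgeR adjusted p = 0.132). Ccr9, a chemokine receptor of cortical thymocytes, did not pass either (edgeR adjusted p = 0.705), being lower in gated than other WT cells, at 358 and 813 CPM, and higher in T-ALL#1, at 142 and 38.

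Genes of late single-positive maturation rose in most cases. Of 25 tested, 19 rose and 0 fell, with a median log2 change of 1.79, and 14 rose and 0 fell against non-cycling cells, with a median of 1.28 against -0.03 over all genes. Ms4a4b had the largest change of the list that met the level limit for naming, at 3.44 (SE 0.25, edgeR adjusted p = 8.67e-06; 2.64 and 1.63e-05 against non-cycling cells). Cd52, a small glycosylphosphatidylinositol-anchored antigen of mature lymphocytes, was at 2941, 1441, 837 and 308 CPM in gated and 1052, 238, 103 and 66.0 in other cells (log2 change 2.37, edgeR adjusted p = 0.000214). All gated values lay above those of their own library, while the gated value of T-ALL#2 lay below the other cells of WT. Slfn1, a Schlafen gene of resting T cells, was at 226, 100, 22.4 and 2.56 CPM against 30.5, 9.86, 3.46 and 0.677.

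Other members of the late list rose as well. Ltb, the lymphotoxin chain, changed by 1.79 (edgeR adjusted p = 1.76e-06), Il7r, the receptor of the survival cytokine IL-7, by 1.48 (edgeR adjusted p = 0.00197), and Tmsb10, an actin-binding peptide, by 1.27 (edgeR adjusted p = 0.000127). Il7r missed the threshold against non-cycling cells (edgeR adjusted p = 0.168), being at 28.2 CPM in gated and 17.3 in other cells of T-ALL#2. Dapl1, found in naive and late single-positive T cells, changed by 5.40 (SE 0.75, edgeR adjusted p = 0.00105) but was at 30.8, 20.5, 4.20 and 0 CPM in gated cells. The members that did not pass were H2-Q7, Plac8, Gimap3, Gimap6, Gimap7 and Samhd1. Plac8 was higher in both T-ALL, at 839 and 917 CPM against 328 and 523, and lower in WT and PL, at 31.0 and 148 against 53.5 and 279.

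**Figure D3:**
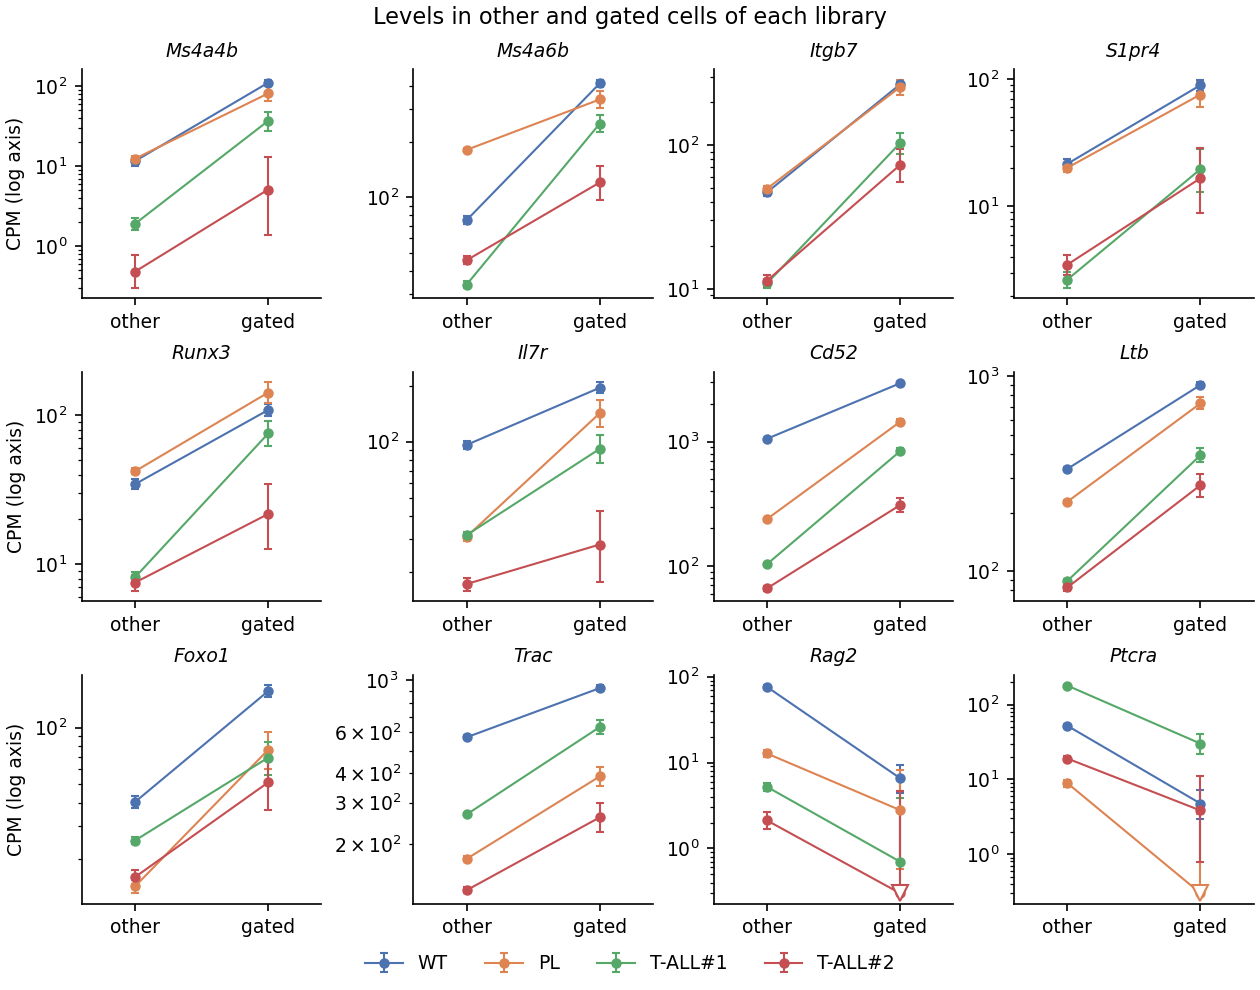
CPM (log axis) in other and gated cells of each library for genes the gate did not use, with 95% Poisson intervals; open triangles at 0.3 mark sums with 0 UMIs. Ms4a4b, Itgb7, S1pr4, Cd52, Ltb, Foxo1 and Trac were higher in gated cells of all 4 libraries, and Rag2 and Ptcra were lower.

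Because Klf2 belongs to a family that binds CACCC boxes, the 250 bases before the start of 3 genes that rose in all 4 libraries and were not used by the gate are shown, taken from RefSeq (GRCm38.p6) and printed on the strand of the gene. Capitals mark CACCC or its complement GGGTG. Of 10 genes looked up, 6 had an entry. The Itgb7 window is chr15:102231936-102232185 on the minus strand with 4 matches, that of S1pr4 is chr10:81500138-81500387 on the minus strand with 1, and that of Ms4a4b is chr19:11443308-11443557 on the plus strand with 2.
Itgb7: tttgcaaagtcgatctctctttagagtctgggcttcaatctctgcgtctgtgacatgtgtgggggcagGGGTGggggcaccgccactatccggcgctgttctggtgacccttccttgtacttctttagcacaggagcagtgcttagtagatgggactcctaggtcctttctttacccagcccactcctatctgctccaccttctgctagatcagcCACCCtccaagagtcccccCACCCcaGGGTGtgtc
S1pr4: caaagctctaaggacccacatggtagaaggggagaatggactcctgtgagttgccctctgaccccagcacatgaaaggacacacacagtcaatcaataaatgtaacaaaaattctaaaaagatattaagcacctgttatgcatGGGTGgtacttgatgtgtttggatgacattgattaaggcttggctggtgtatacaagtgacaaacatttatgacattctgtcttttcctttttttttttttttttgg
Ms4a4b: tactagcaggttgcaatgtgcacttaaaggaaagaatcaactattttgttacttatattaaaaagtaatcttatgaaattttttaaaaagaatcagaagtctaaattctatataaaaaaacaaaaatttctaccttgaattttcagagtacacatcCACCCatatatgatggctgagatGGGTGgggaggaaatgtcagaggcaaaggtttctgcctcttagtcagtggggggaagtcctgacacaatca
Over all 32851 windows of this length, 52.0% held at least 1 match on either strand, 21.1% at least 2 and 6.92% at least 3. The windows of Il7r and Slfn1, which also rose, held 0 matches, and a match of these letters is a description and not a binding site.

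Genes of immature and just-selected thymocytes went down or did not pass the test. Of 18 tested, 6 fell and 1 rose, with a median log2 change of -0.56, and 5 fell and 0 rose against non-cycling cells. Rag2, the partner of Rag1, was at 6.56, 2.79, 0.699 and 0 CPM in gated and 76.0, 12.7, 5.21 and 2.12 in other cells (log2 change -3.16, edgeR adjusted p = 3.84e-05). Ptcra, the pre-T-cell receptor alpha chain of the beta-selection stage, was at 4.75, 0, 30.1 and 3.84 CPM against 52.2, 8.93, 180 and 19.0 (log2 change -2.90, edgeR adjusted p = 8.56e-06). Aqp11, Rag1 and Cd24a also fell, by 2.06, 2.18 and 1.32 on the log2 scale, and Rag1 and Cd24a missed the threshold against non-cycling cells (edgeR adjusted p = 0.076 and 0.0651). The member that rose was Nr4a1, an immediate target of T-cell receptor signals, by 0.65 (edgeR adjusted p = 0.0344), which missed the threshold against non-cycling cells (edgeR adjusted p = 0.593).

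Factors of quiescence depended on the comparison cells. Of 18 tested, 13 rose and 0 fell against all other cells, with a median of 0.78, and 3 rose and 0 fell against non-cycling cells, with a median of 0.32. The 3 were Foxo1, Bach2 and Tsc22d3. Foxo1, the transcription factor upstream of Klf2 and Il7r, was at 156, 76.2, 69.2 and 51.2 CPM in gated and 40.3, 14.4, 25.1 and 16.1 in other cells, a log2 change of 1.93 (SE 0.17, edgeR adjusted p = 1.93e-05; 1.45 and 0.0283 against non-cycling cells). Bach2, a repressor that keeps T cells naive, changed by 1.81 and Tsc22d3, a glucocorticoid-induced leucine zipper, by 1.20. Cdkn1b, a cyclin-dependent kinase inhibitor, did not pass (log2 change 0.30, edgeR adjusted p = 0.123), nor did Tcf7 and Lef1, at -0.33 and 0.01.

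Part of the genes of antigen presentation, interferon response and NF-kB rose. Of 17 tested genes of MHC class I and interferon response, 9 rose and 0 fell, with a median of 1.02, and 5 rose against non-cycling cells. H2-D1, a classical class I heavy chain, was at 3276, 2833, 913 and 351 CPM in gated and 1110, 909, 296 and 224 in other cells (log2 change 1.43, edgeR adjusted p = 0.000821). Ifi27l2a, an interferon-induced gene of mature thymocytes, was at 1784, 475, 63.7 and 16.6 CPM against 300, 70.5, 10.1 and 3.75, a log2 change of 2.66 (edgeR adjusted p = 4.51e-07), so that the gated cells of both leukemias lay below the other cells of PL. Of 13 genes of the NF-kB pathway, which serves medullary maturation, 12 rose and 0 fell, with a median of 1.13, and against non-cycling cells 3 rose, namely Nfkb1, Traf1 and Tnfrsf18.

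Genes of the cytotoxic and the helper lineage rose in part. Of 15 genes of the CD8 lineage, 9 rose and 0 fell, with a median of 2.84, and 7 of 14 rose against non-cycling cells. Runx3, the factor that fixes the CD8 fate, was at 109, 142, 75.5 and 21.8 CPM in gated and 34.5, 42.1, 8.17 and 7.53 in other cells (log2 change 2.13, edgeR adjusted p = 0.00174). Ctsw, a protease of cytotoxic cells, and Il2rb, the beta chain of the IL-2 and IL-15 receptors, changed by 2.88 and 2.92 (edgeR adjusted p = 0.0163 and 0.00136). Cd8a and Cd8b1 themselves did not pass, at -0.14 and 0.17, and the other cells of WT held them at 904 and 1023 CPM. Of 9 genes of the CD4 lineage, 5 rose and 0 fell, with a median of 1.33, and 2 of 8 rose against non-cycling cells. Zbtb7b, the factor of the CD4 fate, was at 66.5, 4.65, 1.4 and 0 CPM in gated cells, with 21.7, 0.578, 0.880 and 0.338 in other cells.

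T-cell receptor genes mostly did not pass. Of 15 tested, 2 rose, Trac and Cd3e, and 2 fell, Trbc2 and Ptcra, with a median of 0.10. Against non-cycling cells 1 rose, Trac, and 1 fell, Ptcra, while Cd3e stood at 0.02 (edgeR adjusted p = 0.962) and Trbc2 at -0.54 (edgeR adjusted p = 0.064). Trac, the alpha constant gene that is transcribed after the alpha locus rearranges, was at 926, 389, 632 and 260 CPM in gated and 571, 173, 267 and 127 in other cells (log2 change 1.08, edgeR adjusted p = 3.84e-05; 0.64 and 0.0137 against non-cycling cells). Of 10 genes of the DN3 stage and Notch pathway, 0 rose and 3 fell, Il2ra, Notch1 and Ptcra, and against non-cycling cells 0 rose and 2 fell, where Notch1 missed the threshold (edgeR adjusted p = 0.0909). The Notch targets Hes1 and Dtx1 stood higher in gated cells of both leukemias than in gated WT and PL cells. Hes1 was at 129 and 97.3 CPM there, against 5.43 in WT and 12.1 in PL. Dtx1 was at 174 and 178 CPM, against 43.7 and 48.3. These levels were not particular to the gate. The leukemic cells outside it held Hes1 at 172 and 114 CPM and Dtx1 at 278 and 136. Nrarp, at low levels, did not follow in both leukemias. Gated cells held it at 6.99 CPM in T-ALL#1 but 1.28 in T-ALL#2, against 2.04 in WT and 5.58 in PL.

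The T-cell receptor beta constant genes Trbc1 and Trbc2 are alternatives, and cells of a clone share the choice between them. In T-ALL#2 Trbc1 gave 1 of 2554 UMIs of both genes in gated cells (0.0392%, interval 0.000991 to 0.218) and 0.0186% in other cells. In WT the Trbc1 share was 30.2% in gated and 37.0% in other cells, in PL 54.3% and 48.5%, and in T-ALL#1 37.5% (36.3 to 38.7) and 21.1% (21.0 to 21.2). The interval of the gated cells held the share of the other cells in T-ALL#2, and lay above it in T-ALL#1. Which cells of T-ALL#1 belong to the leukemia was not tested.

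Tal1 RNA was present in the gated cells of every transgenic library; reads of the transgene and of the mouse gene cannot be told apart in these counts. Tal1 had 0 UMIs in WT, and in PL it was at 397 CPM in gated and 410 in other cells, with a UMI in 81.8% (75.1 to 87.4) and 82.3% of them. In T-ALL#1 it was at 150 and 66.6 CPM, in 50.7% (42.0 to 59.5) and 39.5% of cells, and in T-ALL#2 at 177 and 235 CPM, in 74.6% (61.6 to 85) and 91.3%. Between gated and other cells Tal1 did not pass the test (log2 change 0.23, edgeR adjusted p = 0.716). Of 8 genes tested of the list linked to the transgenes, 2 rose, Arid5b and Ly6c1, and 0 fell, with a median of 0.73; against non-cycling cells 1 rose. Cpa3, a mast cell protease gene of this list, was at 469 CPM in gated and 1363 in other PL cells.

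By rule, the genes with the largest changes in the same direction in all 4 libraries, at 50 CPM or more on the mean of gated or of other cells, were named. The 12 that rose most were Igkc, Ms4a4b, Cd7, Ms4a6c, Ctss, 9930111J21Rik2, Smad7, Slfn1, Il2rb, Ctsw, Itgb7 and Ifi27l2a, with log2 changes from 4.18 to 2.66. For Ctsw the direction in T-ALL#2 rested on 1.28 CPM in gated and 1.07 in other cells, near the floor. Cd7, an immunoglobulin-family receptor of T and natural killer cells, was at 222, 249, 115 and 47.3 CPM against 46.1, 16.4, 5.11 and 7.53, and missed the threshold against non-cycling cells (edgeR adjusted p = 0.0614). Smad7, an inhibitor of TGF-beta signals, was at 244, 165, 86.7 and 21.8 CPM against 31.8, 33.1, 4.57 and 3.95 (log2 change 3.09, edgeR adjusted p = 0.00287). The 12 that fell most were the cell-cycle and histone genes Ccna2, Pbk, Nusap1, Knl1, Esco2, Cdk1, Tpx2, Prc1, Kif15, Hist1h1b, Hist1h3c and Hist1h2ab. The gate's limit acts on the cell cycle, and against non-cycling cells Hist1h1b alone of the 12 passed the test (edgeR adjusted p = 0.0304).

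Igkc, the immunoglobulin kappa constant gene, is a B-cell gene, and B-cell RNA was found in the gate. Igkc was at 0.679, 165, 131 and 66.5 CPM in gated cells of WT, PL, T-ALL#1 and T-ALL#2 and 0.510, 8.62, 5.11 and 3.67 in other cells. Of 6 B-cell genes tested, 3 rose, Igkc, Cd79a and Ms4a1, and 0 fell, with a median of 4.04 and the same count against non-cycling cells. The summed level of the 8-gene B-cell list was 81.0 CPM in gated and 217 in other WT cells, 458 and 124 in PL, 520 and 169 in T-ALL#1, and 302 and 74.5 in T-ALL#2. In gated WT cells 4 of the 8 genes were at 0, with Ms4a1 among them. Class II genes of dendritic, myeloid and B cells moved with them, with Cd74 at 12.7, 218, 160 and 517 CPM in gated and 61.2, 36.6, 11.7 and 9.79 in other cells, and 0 of 5 myeloid genes tested rose and 1, Lyz2, fell, with a median of 1.78 and the same counts against non-cycling cells.

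Few cells carried these UMIs. Cells with 3 or more UMIs of the B-cell and myeloid lists without Ighm and Cst3, which were spread over most cells, were 5 of 630 gated cells in WT, 4 of 165 in PL, 7 of 134 in T-ALL#1 and 3 of 59 in T-ALL#2. Without them the test gave 1122 genes that rose and 1520 that fell, of which 2549 calls were shared with those above in the same direction, and Igkc no longer passed the filter on counts. Mature B cells also use Klf2, S1pr1 and Ccr7, and droplets with both a B cell and a thymocyte were not told apart from B cells.

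Of other T-cell kinds, a gene of regulatory T cells was found in the gate. Foxp3, their lineage factor, had a UMI in 34 of 630 gated WT cells (5.40%, interval 3.77 to 7.46) against 0.418% of other cells, in 6 of 165 gated PL cells (3.64%) against 0.166%, and in 0 of 134 and 0 of 59 gated cells of the leukemias, which allows shares of cells with a UMI, not of cells that express the gene, of up to 2.72% and 6.06%. In gated WT cells Foxp3 was at 17.0 CPM in Cd4-only cells (32 UMIs) and 17.3 in Cd8b1-only cells (19 UMIs). Foxp3 was not among the tested genes. Of 5 tested regulatory T-cell genes, 2 rose, Tnfrsf18 and Tnfrsf4, and 1 fell, Il2ra, with a median of 0.85, and 1 rose and 1 fell against non-cycling cells. Tnfrsf4 missed the threshold there (edgeR adjusted p = 0.213) and was not higher in the leukemias, at 88.0, 10.2, 0.699 and 0 CPM in gated and 25.9, 2.72, 1.10 and 1.18 in other cells. Of 9 genes of natural killer T and innate-like cells, 4 rose and 0 fell, Klrd1, Il2rb, Il18r1 and Xcl1, with a median of 1.51, and against non-cycling cells 3 of 8 rose, where Klrd1 missed the threshold (edgeR adjusted p = 0.106). Of 8 gamma-delta genes, 0 rose and 1 fell, with a median of 0.16 and the same counts against non-cycling cells, and 0 erythroid genes were high enough to be tested.

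Gated PL cells were then set against gated WT cells, at 1075658 and 4418660 summed UMIs, to see how cells that pass the gate differed before leukemia. The PL share was not distinguishable from background, so the ratios compare cells that passed the gate and not the egress stage as such. With 1 library each there is no test. A gene counts here when it reached 100 CPM in either set, differed at least 2-fold, and had a 95% interval of the ratio (exact conditional binomial) that left out 1. Of 1622 genes at this level, 95 passed (5.86%), 54 higher in PL (3.33%) and 41 lower (2.53%). With cells thinned to 2000 UMIs 180 of 1962 were higher and 75 lower. The 95 were also looked up in the other cells. Between the other cells of PL and WT, 68 of the 95 (71.6%) differed at least 2-fold in the same direction with an interval that left out 1. No CPM limit was set there, and 4 ran in the opposite direction. The share of all 1622 genes that differed so in the other cells was not counted, so 71.6% cannot be called high or low.

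Both genes of the CD4 list at this level, Cd4 and Cd5, were lower in gated PL cells. Cd4 was at 16.7 CPM in PL and 224 in WT, 13.4-fold lower, and Cd5, a surface protein set by receptor signal strength, was at 67.9 and 330 CPM, 4.87-fold lower. Izumo1r, the folate receptor 4 of CD4 and regulatory T cells, was 6.19-fold lower, Egr1, an immediate early gene of receptor signals, 5.94-fold lower, Cd6 3.24-fold lower and Id3, an inhibitor of E proteins, 3.17-fold lower. The other cells differed more in Cd4, by 39.5-fold, in Cd5, by 8.25-fold, and in Id3, by 14.5-fold. Tesc, Rgs10, Ptms, Ifi27l2a, Itm2a and Cytip were 5.38-, 4.35-, 3.92-, 3.75-, 3.6- and 3.25-fold lower. Ifi27l2a was at 475 and 1784 CPM.

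All 4 genes of the gamma-delta list at this level were higher in gated PL cells. Trdc, the delta constant gene, was at 673 CPM in PL and 62.9 in WT (10.7-fold, 9.30 to 12.3), and Tcrg-C1, Tcrg-C2 and Tcrg-C4 were 10.9-, 14.5- and 11-fold higher. These near-identical gamma constant genes can share reads and their separate values are uncertain. Trac was lower, at 389 and 926 CPM. In the other cells Trdc was at 1162 and 238 CPM, so gated cells were below the rest of their library in both.

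Of the list linked to the transgenes, 3 of 4 genes at this level were higher in gated PL cells, Tal1, Cpa3 and Ly6c1. Tal1 had 427 UMIs in gated PL cells and 0 in WT, and P2ry1, a purine receptor, had 127 and 0. By the lower limit of the exact conditional 95% interval, Tal1 was at least 473-fold and P2ry1 at least 139-fold higher. Cpa3 was at 469 and 2.72 CPM (173-fold, 98.1 to 337), Ly6c1, a Ly6 antigen, at 101 and 3.17 (32.0-fold), and Atp8b4, a lipid flippase gene, at 149 and 13.1 (11.3-fold). In the other cells Cpa3 was at 1363 and 1.63 CPM. Igkc (3 UMIs in WT, ratio 242, 81.6 to 1186), Cd74 (17.2-fold) and Ly6d (14.0-fold) were higher as well. Without the cells that held 3 or more strict B-cell or myeloid UMIs, Cd74 was lower in PL, by 1.75 on the log2 scale, and Ly6d was still higher, by 3.21 on that scale.

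Genes of late maturation and of earlier stages were found on both sides. Of the late maturation list, 2 of 22 genes at this level were higher in PL, Plac8 and Ly6c1, and 4 were lower, Ifi27l2a, Samhd1, Slfn1 and Cd52, with a median log2 ratio of -0.37 against -0.03 over all genes at this level. Of the immature list 3 of 10 were higher, Arpp21, Cd24a and Dntt, and 3 lower, Itm2a, Egr1 and Satb1, with a median of 0.86. Cd24a was at 112 CPM in gated PL cells and 30.3 in WT (3.71-fold, 2.88 to 4.78), and Dntt, the terminal transferase of rearranging cells, at 226 and 69.7 (3.24-fold). Of the CD8 list 3 of 7 were higher, Ccl5, Nkg7 and Ly6c2, and 0 lower, with Ccl5, a chemokine of memory-like CD8 cells, at 583 and 105 CPM (5.55-fold). Of quiescence factors 1 of 15 was higher, Klf6, and 1 lower, Foxo1, at 76.2 and 156 CPM, and of migration receptors 1 of 8 was higher, Itga4, and 0 lower. The numbers were 0 higher and 1 lower (H2-T23) of 14 for class I and interferon genes, and 0 of 4 for the NF-kB list. Of the T-cell receptor list 4 of 14 were higher, those of the gamma and delta chains, and 1, Trac, lower, and Ikzf2 of the regulatory and Rora of the innate-like list were higher too.

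**Figure D4:**
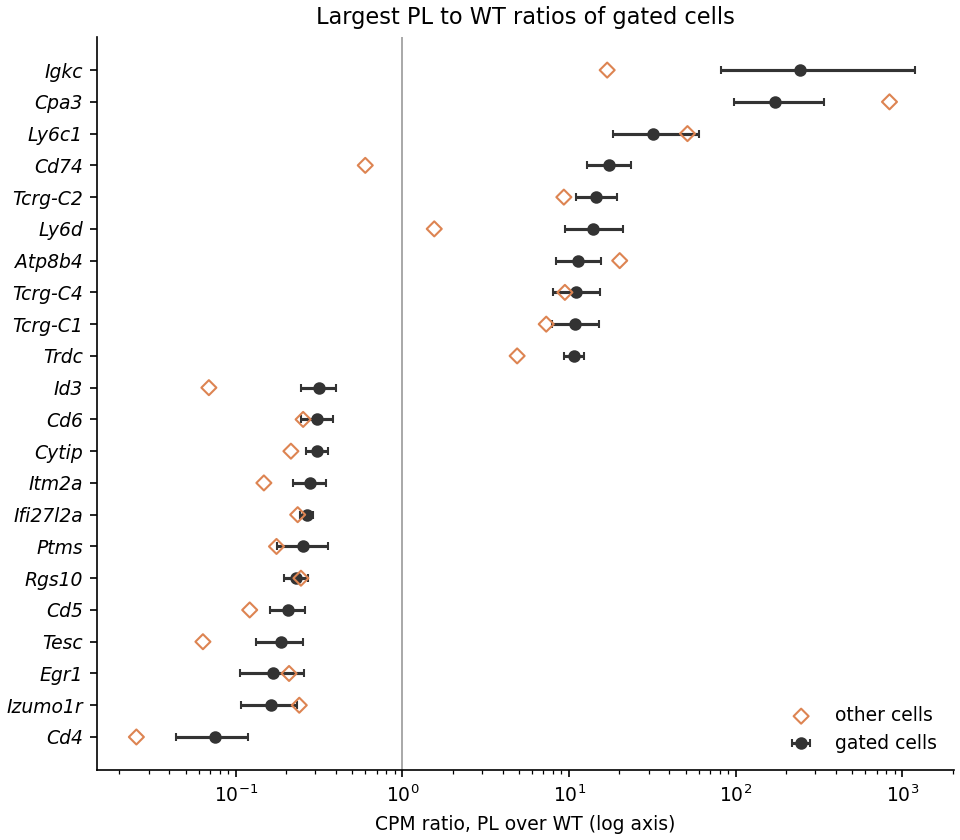
CPM ratio of PL over WT (log axis) for the genes with the largest ratios in gated cells that had UMIs in both sets; points with bars are gated cells with 95% intervals, and open diamonds are the other cells of the same libraries. Cd74 and Ly6d stood 17.2- and 14.0-fold higher in gated PL cells while their other-cell ratios were 0.599 and 1.55, and Cd4 lay further below 1 in other cells than in gated ones. Without 4 PL and 5 WT cells that held B-cell or myeloid UMIs, Cd74 was lower in PL, by 1.75 on the log2 scale.

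In WT the gated cells could also be split by coreceptor, into 277 Cd4-only cells with 1886261 UMIs and 154 Cd8b1-only cells with 1099312 UMIs, at median depths of 6423 and 6455. They came from 1 library and there is no test. By the rule above, 29 of 1561 genes differed (1.86%), of which 10 were higher in Cd4-only cells (0.641%) and 19 in Cd8b1-only cells (1.22%). With cells thinned to 2000 UMIs the numbers were 55 and 62 of 1810. Genes of the CD8 lineage were 6 of the 19. Cd4 and Cd8b1 chose the cells and were left out.

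Genes of cytotoxic T cells were higher in Cd8b1-only cells. Xcl1, a chemokine of CD8 and natural killer cells, was at 229 CPM there and 4.24 in Cd4-only cells, 54.0-fold apart, and Itgae, the integrin chain that binds E-cadherin, at 119 and 3.71, 32.1-fold apart. Cd8a, the partner chain of Cd8b1, was at 773 and 31.8 CPM (24.3-fold), Nkg7, a granule protein, at 247 and 19.1 (13.0-fold) and Runx3 at 236 and 38.7 (6.09-fold). Cd226, Slamf6, Ccr9, Fam189b and AW112010 were higher by 5.93-, 4.76-, 3.73-, 3.07- and 2.70-fold. All 6 genes of the CD8 list at this level were past the fold on this side, with a median log2 ratio of -4.15.

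Among genes that reached 100 CPM, Il6ra, Igfbp4 and Itm2a led those higher in Cd4-only cells. Genes below that level were left out on both sides. On the Cd4 side these included Zbtb7b, at 88.5 and 8.19 CPM (10.8-fold, 5.56 to 24.1), and Cd40lg, at 46.1 and 3.64 (12.7-fold). On the other side they included Cd160, at 1.59 in Cd4-only and 36.4 in Cd8b1-only cells. Il6ra, the IL-6 receptor chain, was at 124 CPM against 16.4, 7.54-fold higher (4.67 to 13.0), and Igfbp4, an insulin-like growth factor binding protein, at 312 against 74.6, 4.19-fold higher. Itm2a was at 359 and 113 CPM (3.19-fold), Cytip, a cytohesin-binding adaptor, at 711 and 317 (2.24-fold), and Gata3, a transcription factor of CD4 commitment, at 105 and 48.2 (2.18-fold, 1.60 to 3.01). B630019A10Rik, Zmiz1, Nsg2, Ptpn7 and Tspan32 were 3.27- to 2.05-fold higher. The late maturation list had 0 of 20 genes past the fold on the Cd4 side and 1, H2-Q7, on the Cd8 side, with a median ratio of 1.05, and quiescence factors, class I and interferon genes, the NF-kB list and T-cell receptor genes had 0 of 14, 0 of 14, 0 of 4 and 0 of 10 on either side. Of migration receptors 0 of 9 were higher in Cd4-only and 2, Itgae and Ccr9, in Cd8b1-only cells. Xcl1 of the innate-like list and Ighm of the B-cell list, each the 1 gene of its list at this level, were higher in Cd8b1-only cells.

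**Figure D5:**
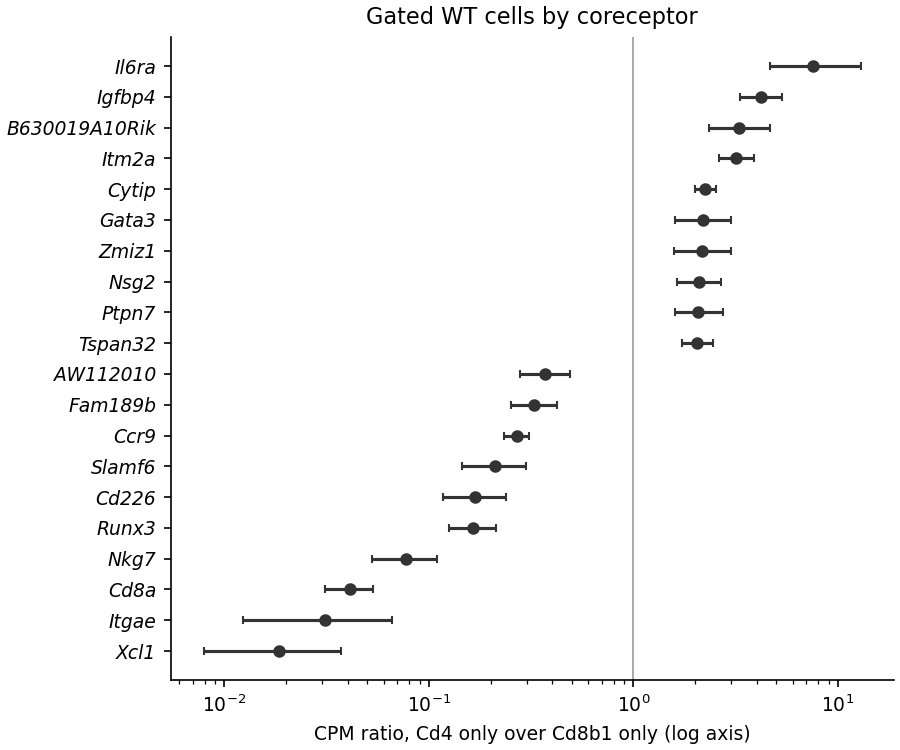
CPM ratio of Cd4-only over Cd8b1-only gated WT cells (log axis) with 95% intervals, for the named genes of each side. Ratios ran from Il6ra at 7.54 down to Xcl1 at 0.0185.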

How the data were processed

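Per the labels and the study's methods, viable thymus cells were run on the 10x Genomics platform with more than 1 version of the 3′ chemistry, which the labels do not assign to libraries. The deposited matrices hold raw UMI counts of 31053 genes per barcode, with no normalization. Per the labels the authors used Cell Ranger and mouse build mm10, and the file headers name Cell Ranger 3.0.2 for WT, PL and T-ALL#1 and version 4 for T-ALL#2, whose matrix holds all barcodes. Cells with over 500 genes and under 10% mitochondrial UMIs were kept, in T-ALL#2 from barcodes with at least 3416 UMIs. This left 4220, 5576, 5773 and 1975 cells with 24042062 to 70745712 UMIs per library, and the study started from more T-ALL#2 barcodes than the 2700 used here. No doublet caller was run, and an upper limit on genes was tried as an alternative.

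UMIs were summed over gated and other cells of each library (781474 to 69316026 UMIs per sum) and compared with edgeR 4.0.16 (TMM factors, filterByExpr, robust quasi-likelihood fit, Benjamini-Hochberg threshold 0.05) in R 4.3.3, with the library as a block since both sums come from 1 animal. Deviations of paired sums from their group means correlated at 0.682 to 0.822 over 3980 genes. Residual degrees of freedom were 3. In simulated data of 11358 genes, 63% of genes changed 2-fold and 100% of those changed 4-fold were recovered, with 7 false calls. The changed genes were drawn from those with higher counts, with the same spread for all genes and the same change in every library. Recovery of genes with few UMIs, or with changes that differ between libraries, was thus not measured. With this block, P-values measure how far the difference between gated and other cells varied between 4 animals of different genotype. They do not measure the differences between the animals themselves.

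Comparisons with 1 library per group give CPM with exact Poisson intervals, 95% throughout, and ratios against a floor of 3 UMIs where a sum was 0. Named genes came from the 20 lists, from the 12 largest called changes each way for gated against other cells (mean of at least 50 CPM, same direction in all 4 libraries), from the 12 largest ratios each way past 2-fold and 100 CPM for PL against WT, and from the 10 largest each way in the coreceptor split. Genes of the gate, variable segments of T-cell receptor genes and mitochondrial genes were not named by these ranks. The gate, the lists and the named-gene rules were chosen with earlier results of these data known. Gene matches were by identifier; DESeq2 1.42.0 served as an alternative. Values of some list genes are not reported here.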

Additional observations from a re-analysis of the deposited data

Results flagged for a closer look

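In 15 genes of the lists, WT gated cells differed from other WT cells in the opposite direction to both T-ALL libraries, beyond counting intervals in each library; these differences between groups were not tested. The log2 ratio of gated over other cells in WT was -1.18 for Ccr9, -1.29 for Themis, a regulator of positive selection, -0.79 for Plac8, -0.79 for Btg2, an antiproliferative factor, and -0.27 for Itm2a. In T-ALL#1 and T-ALL#2 the same ratios were 1.90 and 1.43 for Ccr9, 0.43 and 0.75 for Themis, 1.36 and 0.81 for Plac8, 0.36 and 0.94 for Btg2, and 1.21 and 0.72 for Itm2a. Gated WT cells were thus lower than the other cells of their library in these genes, and gated T-ALL cells were higher than theirs.

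Smaller shifts in WT were -0.29 for Gata3, -0.28 for Tnfaip3, an inhibitor of NF-kB, and -0.087 for Cd27, with 0.83 and 0.66, 0.86 and 1.41, and 0.76 and 1.15 in the T-ALL libraries. Psmb9, a subunit of the immunoproteasome, was the reverse, at 0.70 in WT and -0.21 and -0.45 in the T-ALL libraries. Trdc was at -1.92 in WT and 3.95 and 0.97 in T-ALL#1 and T-ALL#2.

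B-cell and class II genes made up the rest. The WT ratios were -1.89 for Cd79b, -1.42 for Ighm, -5.59 for H2-Aa, -6.71 for H2-Ab1 and -2.27 for Cd74, resting on 14, 335, 2, 1 and 56 UMIs in gated cells. In T-ALL#2 they were 2.65, 1.08, 5.58, 4.00 and 5.72. At least 3 UMIs of the B-cell and myeloid lists less Ighm and Cst3 were held by 5 gated cells in WT, 7 in T-ALL#1 and 3 in T-ALL#2, and their part in these ratios was not tested.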

How the results depend on the processing

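The shares of gated cells in WT, PL, T-ALL#1 and T-ALL#2 were 7.93%, 1.13%, 0.652% and 0.354% after thinning to 2000 UMIs, 8.79%, 1.92%, 1.18% and 1.77% with S1pr1 required, and 11.5%, 2.47%, 1.47% and 1.87% with a cell-cycle limit of 1 per 10000. At least 2 UMIs of Klf2 gave 11.8%, 2.35% and 1.65% in WT, PL and T-ALL#1, and no cell-cycle limit gave 17.4%, 3.64% and 4.61% in WT, T-ALL#1 and T-ALL#2. For gated against other cells, 56 genes rose and 323 fell with no replicate block, which leaves the differences between animals in the error; with other cells under the cell-cycle limit 330 and 197, after thinning 213 and 288, and without cells holding 2 UMIs of the B-cell or myeloid lists 492 and 637. Leaving out each library gave 758 to 1038 genes that rose and 980 to 1444 that fell, with the fewest calls without T-ALL#1. DESeq2's test called 1297 and 1285 genes. For PL against WT, thinning gave 180 genes higher and 75 lower, and Cd74 turned to -1.75 on the log2 scale without cells holding 3 UMIs of the B-cell or myeloid lists less Ighm and Cst3, an alternative chosen after seeing the data. In the coreceptor split, thinning gave 55 and 62 genes and an equal weight of cells gave 6 genes higher in Cd4-only cells. Of the named genes' values in gated against other cells, 306 kept their direction and call and 28 kept their direction but missed the threshold. For PL against WT 125 values stayed within the 95% interval of the reported ratio, 40 left it and 1 reversed, and in the coreceptor split 89 stayed within it and 31 left it. T-ALL#2 was the deepest library per cell and is limited by its 59 gated cells, and WT was the shallowest; where a value moved, the cause was not tested unless the alternative's own construction shows it.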
